A study of Mus musculus with 108 samples.

Results

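The genes described are the organic ion transporters of the Slc22a, Slco and Abcc families, measured by RNA sequencing in 3 tissues of male C57BL/J mice: the liver, the kidney and white fat (WAT, white adipose tissue). They were chosen by symbol alone: every protein-coding row whose symbol starts with Slc22a, Slco or Abcc followed by a digit. This gave 49 genes, 25 of Slc22a, 14 of Slco and 10 of Abcc, of 21824 protein-coding rows and 55416 rows in all. Mice were 8 to 12 weeks old, lived in 12 h of light and 12 h of darkness, and ate and drank freely. The genotypes were Bmal1-flox and Bmal1-iKO, written flox and iKO here. Bmal1, symbol Arntl, encodes a transcription factor of the circadian clock. The sample titles write WT for flox and KO for iKO. No other allele, agent or treatment is named for either genotype. By the labels, both groups share the strain, sex, age and housing given above. Each tissue and genotype was sampled at zeitgeber times (ZT, hours after lights on) 2, 6, 10, 14, 18 and 22 with 3 libraries each, which makes 18 libraries per tissue and genotype. By its title, the series asks how the intestine's clock acts on the daily course of liver metabolism. Neither the promoter behind the deletion nor the cells that lost the gene are given in the labels, and intestine was not analysed here. Nothing in the labels ties each library to its own mouse, so a p-value here weighs a difference against the spread of these libraries, part of which may be technical.

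Liver and kidney clear drugs, bile acids, urate and hormones by passing them across epithelial cells, and these proteins are the gates. Slc22a proteins are mostly uptake carriers for organic cations, organic anions, urate and carnitine, and Slco proteins (OATPs) take up bile acids, steroid conjugates, prostaglandins and thyroid hormones. Abcc proteins include the MRP pumps, which spend ATP to export conjugated compounds into bile, urine or blood, and the sulfonylurea receptors, which are subunits of potassium channels rather than pumps. Several of these genes differ between male and female rodents, and clearance of many of their substrates varies over the day.

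Many of the genes lie side by side. With a gap of at most 1000000 bp between neighbours, 31 of the 49 fell into 9 clusters on GRCm38. The largest held 8 Slc22a genes at chr19:7673061-8628299, among them Slc22a6, Slc22a8 and Slc22a30, and a cluster of 7 at chr6:141524368-142702315 held all 6 family 1 Slco genes. Slc22a5, Slc22a21 and Slc22a4 lie together at chr11:53864542-54028090. Reads that fit more than 1 member of such a cluster may have been shared or dropped in counting, so the low levels of single members, Slc22a26 to Slc22a30 above all, are uncertain. Slc22a12 overlaps Nrxn2, Slc22a3 overlaps Plg, the plasminogen gene, Slco1a5 overlaps Iapp, Abcc10 overlaps Dlk2, and Slc22a13 and Slc22a14 overlap each other. With no strand setting given, reads of such a pair may not be told apart, so these levels are uncertain too.

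Promoter windows of RefSeq (build GRCm38.p6, 250 bases before to 50 after the start) were found for 40 of the 49 genes. The 250 upstream bases of 4 of them are shown because the results below turn on these genes: Slc22a5 is the transporter that differed between genotypes in liver, Slc22a4 and Abcc4 varied with time of day, and Slco1a1 was close to 0 in some libraries. All 4 are on the minus strand and are written 5′ to 3′. Capitals mark the motif letters found on either strand: the E-box CACGTG, which clock proteins can bind, in Slc22a4 (position -228 from the start) and Abcc4 (-205), and the REV-ERB and ROR site TAGGTCA, read here from its other strand, in Slco1a1 (-134). Abcc4 has a further window at another start, which is not shown. The Slc22a5 window held none of the motifs searched. The windows of Slco4a1, Abcc5 and Slc22a15, which also varied with time in flox kidney, held no E-box.
Slc22a5, chr11:53891704-53891953: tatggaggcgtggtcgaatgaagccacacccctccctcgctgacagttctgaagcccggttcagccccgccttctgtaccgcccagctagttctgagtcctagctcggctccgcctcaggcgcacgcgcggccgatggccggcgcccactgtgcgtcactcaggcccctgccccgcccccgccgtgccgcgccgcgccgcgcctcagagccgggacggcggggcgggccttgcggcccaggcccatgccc
Slc22a4, chr11:54028105-54028354: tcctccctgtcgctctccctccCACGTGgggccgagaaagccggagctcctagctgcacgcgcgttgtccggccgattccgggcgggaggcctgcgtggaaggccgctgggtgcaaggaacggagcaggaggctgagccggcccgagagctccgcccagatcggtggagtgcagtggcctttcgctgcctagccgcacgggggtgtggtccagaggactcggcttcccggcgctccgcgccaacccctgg
Abcc4, chr14:118706220-118706469: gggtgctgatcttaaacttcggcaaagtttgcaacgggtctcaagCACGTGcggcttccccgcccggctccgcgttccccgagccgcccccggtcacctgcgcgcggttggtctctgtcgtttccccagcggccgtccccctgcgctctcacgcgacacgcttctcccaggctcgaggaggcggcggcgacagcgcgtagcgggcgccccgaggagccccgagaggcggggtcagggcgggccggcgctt
Slco1a1, chr6:141946963-141947212: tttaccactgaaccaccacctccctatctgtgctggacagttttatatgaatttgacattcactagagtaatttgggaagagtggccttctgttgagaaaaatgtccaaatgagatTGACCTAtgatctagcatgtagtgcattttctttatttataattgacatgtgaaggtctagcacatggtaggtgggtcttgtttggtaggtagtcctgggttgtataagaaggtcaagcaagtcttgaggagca

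A match describes letters and shows no binding. CACGTG stood in the windows of 4 of the 40 genes (10%, Abcc4, Slc22a16, Slc22a4 and Slco1c1) against 8.09% of the 27025 genes with a window. The D-box TTATGTAA stood in 2 (Slc22a20 and Slc22a26, 5.0% against 1.11%), TTCNNNGAA, the core of a STAT5 site, in 9 (22.5% against 9.55%), and TAGGTCA in 1 (2.5% against 2.97%). Abcc4 is among the 9 with TTCNNNGAA, by a match that does not lie wholly within its printed bases. CAAAGTCCA, part of an HNF4 site, was in none of these windows.

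Some facts of the whole series touch the results. Total counts per library were 13.9 to 24.4, in units of 1000000 counts. The average iKO minus flox difference of Arntl was not called in liver (-0.10 log2, SE 0.18, edgeR adjusted p = 0.763), kidney (0.28, 0.21, 0.741) or WAT (-0.09, 0.22, 1). Levels are in CPM, counts per 1000000 counts of a library whose total was first scaled by TMM factors over all libraries. In liver the level of Arntl in CPM (lowest, median, highest) was 3.21, 13.95 and 37.8 in flox and 3.10, 11.65 and 31.0 in iKO. It was detected in every library of both genotypes in each tissue. In 11 livers, 2 flox (ZT6 number 1, ZT22 number 1) and 9 iKO (numbers 1 and 2 of ZT6, ZT14 and ZT18 and all 3 of ZT22), the mean of 12 cell cycle genes was 3.36 to 4.16 log2 CPM, against -1.16 to 1.15 in the other 25. The 10 macrophage markers were also higher there, at 8.18 to 9.31 against 3.08 to 7.32, while the 7 hepatocyte markers were at 10.6 to 12.61 against 12.0 to 12.9. Kidneys with the same 11 labels had interferon genes at 5.18 to 7.81 against 2.29 to 5.25. In 2 of the 11, iKO ZT18 number 1 and iKO ZT22 number 3, Xist was high and the Y-linked genes were near 0, against the male label. Results that changed without these libraries are also given without them, and leaving them out was decided after their values were seen. Numbers stand apart together in liver and kidney, so liver and kidney of 1 number may come from 1 mouse. The labels do not say so, and the tests between tissues treat the libraries as independent. Liver held its hepatocyte markers and kidney its proximal tubule markers (8.18 to 10.59) in every library. WAT held adipocyte markers at 3.5 to 11.53, but 13 of 36 WAT libraries also held epididymis markers at a mean above 9. Another 18 held them at means of 0.93 to 6.57, but the 7 markers did not move together. Crisp1 was at 129.7 to 26020 CPM there, with a median of 7992 CPM against 2108 CPM in the 13. The other markers had lower medians in the 18, such as Adam7 (417.8 against 5518 CPM), Lcn8 (0.374 against 3576 CPM) and Rnase10 (0.358 against 1878 CPM). In the last 5 the mean was below 0 and Crisp1 did not exceed 2.223 CPM. The WAT library of iKO ZT22 number 3, a number with high Xist in liver, held markers of epididymis, a male tissue, at a mean of 11.5. Whether WAT shares its mice with liver and kidney by number is therefore uncertain.

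In flox mice the kidney held the most transporters. At a median of at least 1 CPM there were 36 of the 49 in kidney, 28 in liver and 22 in WAT, and the highest median was in kidney for 21, in liver for 12 and in WAT for 8, with 8 below 1 CPM in every tissue. Together they took a median of 0.554% of counts in kidney, 0.198% in liver and 0.0733% in WAT. The count for WAT depends on libraries with epididymis markers. In the 5 WAT libraries below 0 on them, of both genotypes, Slco1a5 and Abcc8 had medians of 0.029 and 0.439 CPM. Slco2a1, at 10.1 CPM, was below its flox liver and kidney medians, while Abcc1, Abcc5, Abcc9, Slc22a3 and Slc22a21 stayed above theirs. In bulk tissue, fewer cells of a type and less RNA per cell cannot be told apart. The map of median levels by tissue and genotype shows the split, with the organic anion carriers bright in kidney and the family 1 OATPs divided between liver and kidney.

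**Figure D1:**
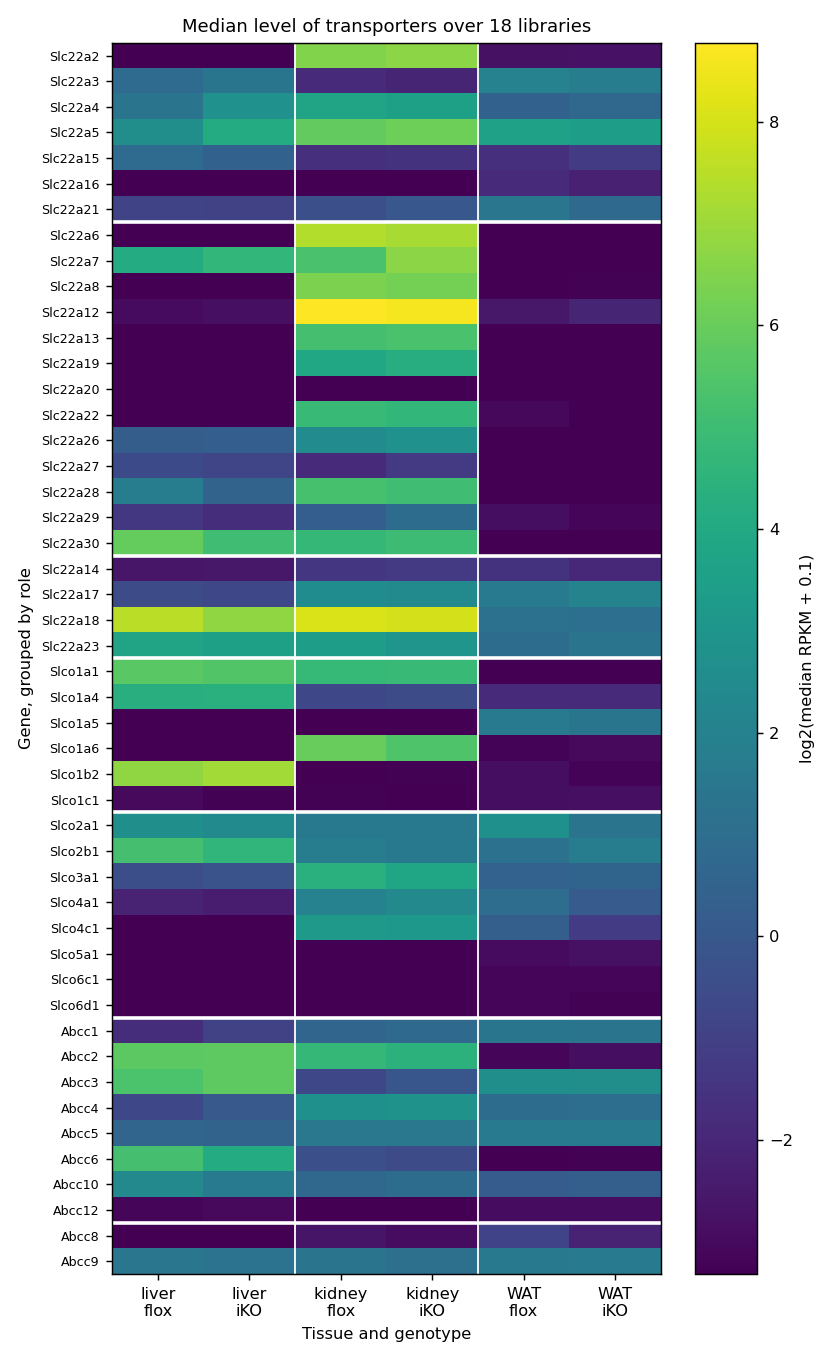
Median level of the transporters (rows, grouped by role) over the 18 libraries of each tissue and genotype (columns), as log2 of RPKM (CPM per kilobase of gene length) plus 0.1. Kidney columns are brightest for the organic anion and urate transporters, and flox and iKO columns of a tissue look much alike.

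Tests between tissues used the 54 flox libraries, in which 47 of the 49 passed the filter on low counts (Slc22a20 and Slco6d1 did not). Between liver and kidney 39 of the 47 were called at an adjusted p under 0.05, 14 higher and 25 lower in liver, where 66% of all genes were called (30.7% higher and 35.3% lower). Between kidney and WAT it was 41, 27 of them higher in kidney (background 65.9%, with 26.7% higher and 39.1% lower), and between liver and WAT 40, 19 of them higher in liver (background 77%, with 31.3% higher and 45.7% lower). The median difference of the 47 was -0.76 log2 for liver minus kidney and 1.63 for kidney minus WAT, against -0.06 and -0.21 over all genes tested. A member that passed the filter through 1 tissue alone could hardly fail to differ, so these counts describe the set and single it out in no way. In 9 genes every one of the 18 flox kidneys lay above all flox livers and WAT libraries (2.56% of all genes did so): Slc22a2, Slc22a6, Slc22a8, Slc22a12, Slc22a13, Slc22a19, Slc22a22, Slco1a6 and Slco3a1. In liver the same held for 3, Slco1b2, Slco1a4 and Abcc3 (2.56%), and in WAT for none of the 47 (0.749%).

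Among the organic anion and urate carriers, 12 of 13 were tested. All 12 were called higher in kidney than in WAT (26.7% of all genes were), and 10 were called higher in kidney than in liver (35.3%). Carriers that passed the filter through kidney alone could hardly fail to be called, so these counts only describe the group. Slc22a12, the urate carrier of the proximal tubule brush border, had the highest level per length of the set, with 348.5, 993 and 1592 CPM in flox kidney (lowest, median, highest) and a median of 439 RPKM. It did not exceed 2.95 CPM in any flox liver or 0.623 CPM in any flox WAT library (edgeR adjusted p = 7.30e-21 for liver against kidney). Slc22a6 and Slc22a8, the basolateral carriers that bring drugs and uremic anions into tubule cells, had 79.1, 670 and 1274 CPM and 166.9, 330 and 603 CPM in flox kidney. All 18 flox WAT libraries had no count of Slc22a6, which puts kidney at least 98030-fold higher against a floor of 3 counts over those libraries together. The same bound was 13470-fold for Slc22a19 and 12000-fold for Slc22a13. These bounds cover counting error only.

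The rodent genes of the chromosome 19 cluster were split between liver and kidney. Slc22a30 had 1.02, 206 and 384 CPM in flox liver (median 61.3 RPKM) and 4.11, 89.1 and 194 CPM in flox kidney, and was higher in liver by 1.2 log2 (SE 0.42, edgeR adjusted p = 0.0133), although the ranges overlapped. Slc22a28 went the other way, with a median of 6.78 CPM in liver and 75.4 CPM in kidney. Slc22a7, which carries cyclic nucleotides and other anions, had a median of 36.6 CPM in liver and 82.7 CPM in kidney, with single kidneys from 4.18 to 370 CPM. The difference was -1.27 log2 for liver minus kidney (SE 0.32, edgeR adjusted p = 0.000701).

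Among the organic cation and carnitine carriers, Slc22a2, which takes up organic cations on the basolateral side of tubule cells, had 96.3, 225 and 347 CPM in kidney and at most 0.369 CPM in liver, where 14 of 18 libraries were at 0. Slc22a3 was highest in WAT, at 3.75, 17.9 and 116 CPM, against a median of 7.92 in liver and 0.792 in kidney.

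Slc22a5, which carries carnitine into cells with sodium, had 57.7, 177 and 281 CPM in flox kidney, 19.0, 36.6 and 167 CPM in WAT and 10.3, 19.1 and 187 CPM in liver. Per length it was the highest transporter over all flox WAT libraries, at a median of 11.9 RPKM. That rank did not hold in the 5 WAT libraries, of both genotypes, below 0 on the epididymis markers. There Slc22a5 had a median of 30.5 CPM at a gene length of 3071 bp, and Slc22a3 108.6 CPM at 4513 bp. The difference was -2.61 log2 for liver minus kidney (SE 0.31) and -0.89 log2 for liver minus WAT (SE 0.30), both past the threshold (edgeR adjusted p = 1.46e-09 and 0.00674). Slc22a4, which takes up ergothioneine, had medians of 33.6 CPM in kidney, 6.14 in liver and 3.23 in WAT.

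Of the other Slc22a genes, the imprinted gene Slc22a18 was the top transporter of liver per length, at a median of 183 RPKM, and the second of kidney, at 272 RPKM. In CPM its flox levels were 60.1, 311 and 436 in liver, 250.6, 462 and 744 in kidney and 0.83, 3.69 and 13.9 in WAT. Slc22a17, a receptor for lipocalin-bound iron, had medians of 25.8 CPM in kidney, 14.2 in WAT and 2.72 in liver. Slc22a23 had medians of 84.7 CPM in liver and 66.7 CPM in kidney, which did not differ past the threshold (0.32 log2, SE 0.21, edgeR adjusted p = 0.183).

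The family 1 OATPs were divided between tissues almost gene by gene. Slco1b2, the hepatocyte uptake carrier for bile acids and statins, had 170.6, 541 and 1279 CPM in flox liver and at most 0.263 CPM in kidney and 1.39 CPM in WAT. Slco1a4 had 36.6, 125 and 256 CPM in liver and at most 9.72 CPM in kidney, a difference of 4.87 log2 (SE 0.35, edgeR adjusted p = 2.43e-15). Slco1a6 was the kidney member, at 43.0, 237 and 453 CPM, and was at 0 in 14 of 18 flox livers.

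Slco1a1, which takes up steroid conjugates and bile acids and is known as a male-biased gene, was shared, with 7.16, 269 and 491 CPM in liver and 0.038, 146 and 608 CPM in kidney. Liver was higher by 1.64 log2 (SE 0.50, edgeR adjusted p = 0.0051), but the ranges overlapped and a kidney near 0 was among them. Slco1a5 had a median of 11.3 CPM and a highest of 282 CPM in flox WAT and did not exceed 0.297 CPM in any liver or kidney.

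Among OATP families 2 to 6, Slco2b1, a carrier of steroid sulfates, stood in liver at 10.7, 219 and 264 CPM and was 3.25 log2 above kidney (SE 0.32, edgeR adjusted p = 1.14e-11). Slco3a1 stood in kidney at 71.5, 171 and 236 CPM and was lower in liver (-4.60 log2 for liver minus kidney, SE 0.24, edgeR adjusted p = 6.75e-20). Slco4a1, a thyroid hormone carrier, was also higher in kidney (medians of 19.4 and 0.627 CPM). Slco2a1, the prostaglandin carrier, had 12.0, 89.1 and 1611 CPM in flox WAT, the widest range of the set there, against 63.5, 86.3 and 203 CPM in liver and 24.9, 38.7 and 61.2 CPM in kidney.

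Among the pumps, Abcc2, which exports conjugates into bile and urine, had 298.4, 455 and 570 CPM in flox liver and 91.4, 228 and 316 CPM in flox kidney. Abcc3 and Abcc4 sit on the blood side of hepatocytes. Abcc3 had 118.3, 231 and 744 CPM in liver and 0.79, 2.93 and 55.9 CPM in kidney, a difference of 5.72 log2 (SE 0.41, edgeR adjusted p = 1.33e-15) with no overlap. Abcc4 was the reverse, at 0.456, 3.35 and 14.3 CPM in liver and 28.04, 42.6 and 148 CPM in kidney (-3.85 log2, SE 0.32, edgeR adjusted p = 1.44e-13).

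Abcc6, whose loss causes ectopic mineralisation, had 2.97, 212 and 476 CPM in flox liver and a median of 3.80 CPM in kidney. It was 5.56 log2 higher in liver (SE 0.41, edgeR adjusted p = 4.88e-15), although the lowest liver lay within the kidney range of 2.06 to 11.6 CPM. Abcc12 had no count in any of the 36 kidney libraries. Of the receptor subunits, Abcc9 was at medians of 22, 20.3 and 23.9 CPM in liver, kidney and WAT, and liver differed from neither past the threshold (edgeR adjusted p = 0.381 and 0.144), while kidney was lower than WAT (-0.52 log2 for kidney minus WAT, SE 0.20, edgeR adjusted p = 0.0194). Abcc8 had no count in any of the 36 livers, which puts flox kidney at least 40.1-fold and flox WAT at least 364-fold higher against a floor of 3 counts over the 18 flox livers.

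Counts of WAT depended on its libraries. Without the WAT libraries above 9 on the epididymis markers, kidney minus WAT called 35 of 47, 28 higher and 7 lower (background 50.6%). Liver minus WAT then called 33, 18 higher and 15 lower (background 60%). Libraries with means from 0 to 9 stayed in, so epididymis markers remained in this fit. Slco4c1, a kidney carrier of cardiac glycosides, moved most. Its kidney minus WAT difference was 0.93 log2 (SE 0.67, edgeR adjusted p = 0.231) with all flox libraries. It was 5.89 log2 without those above 9. Without the 11 numbers, 39, 36 and 41 were called for liver minus kidney, liver minus WAT and kidney minus WAT (backgrounds 66.2%, 75.7% and 64.1%). For context, of 36 tested genes of a list of partner transporters and regulators, 26 were called between liver and kidney (13 each way), 30 between kidney and WAT (25 higher in kidney) and 33 between liver and WAT (27 higher in liver).

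Between genotypes in liver, 1 of 31 tested transporters was called over the 6 times together, where 2.64% of all genes were (1.09% higher and 1.56% lower in iKO). It was Slc22a5, the carnitine carrier, which rose in iKO by 1.09 log2 (SE 0.30, edgeR adjusted p = 0.0467). Its levels were 10.3, 19.1 and 187 CPM in 18 flox livers and 18.7, 53.6 and 207 CPM in 18 iKO livers. The ranges overlapped, because 2 flox livers stood far above the others and 3 iKO livers stood low. The call is fragile: of the 36 fits that left out 1 library, 6 kept it, with differences from 0.97 to 1.48 log2 and adjusted p from 0.000723 (without flox ZT22 number 1) to 0.0889 over all 36. It was also lost with other size factors, with no filter and without the 2 numbers with high Xist.

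The single values of Slc22a5 were as follows. Flox livers had 12.6, 25.01 and 16.04 CPM at ZT2, 138.7, 19.8 and 18.8 at ZT6, and 21.2, 24.8 and 20.3 at ZT10. They had 19.5, 19.4 and 17.9 at ZT14, 17.6, 14.03 and 14.35 at ZT18, and 186.5, 16.7 and 10.3 at ZT22. Both high values, at ZT6 and ZT22, belong to the 2 flox livers among the 11. The iKO livers had 56.1, 31.4 and 70.4 CPM at ZT2, 111.9, 120.5 and 64.3 at ZT6, and 45.4, 67.3 and 48.3 at ZT10. They had 41.7, 51.1 and 96.9 at ZT14, 104.8, 206.7 and 33.2 at ZT18, and 23.8, 23.0 and 18.7 at ZT22. The 3 lowest iKO values are all of ZT22 and all among the 11.

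Without the 11 numbers, 16 flox and 9 iKO livers remained at 5 shared times. Slc22a5 was then 10.3, 18.3 and 25.01 CPM in flox and 31.4, 56.1 and 96.9 CPM in iKO, and no iKO liver lay within the flox range. The rise was 1.62 log2 (SE 0.14, edgeR adjusted p = 2.35e-07). Of 34 tested transporters it was the 1 whose genotypes did not overlap (0.152% of all genes). At single times in these libraries, with 3 livers of each genotype, it was called by edgeR at ZT2 (1.57 log2, adjusted p = 0.0146, background 0.152%) and ZT10 (1.26 log2, 0.0373, 0.369%). At ZT6, ZT14 and ZT18 only 1 iKO liver remained, with 64.3, 96.9 and 33.2 CPM. The fit then assumes that this lone liver varies like the other groups. On that assumption ZT14 was called (2.37 log2, edgeR adjusted p = 0.000956, background 0.709%) and ZT6 (1.78 log2, 0.0737) and ZT18 (1.13 log2, 0.245) were not. The plot of Slc22a5 by time shows both patterns.

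**Figure D2:**
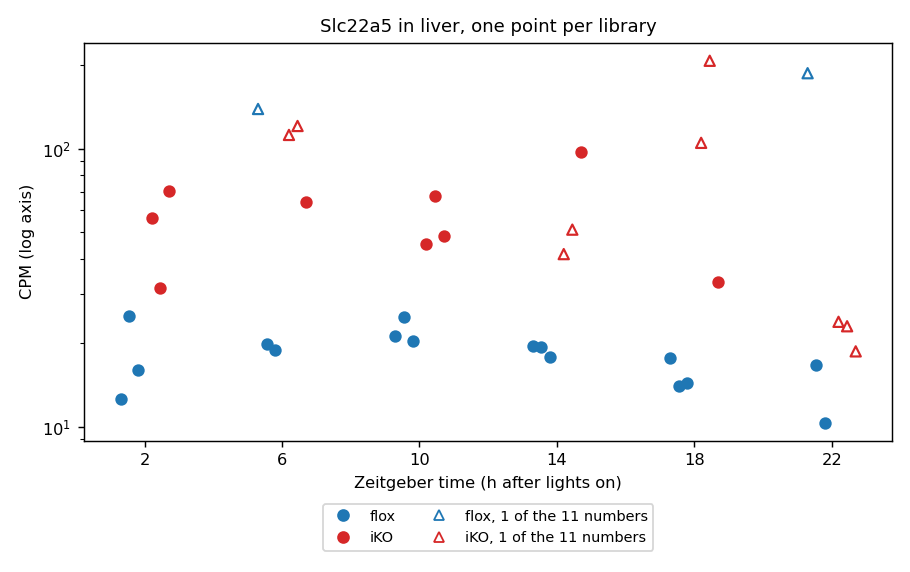
Slc22a5 level in liver (CPM, log axis) against zeitgeber time, 1 point per library, with flox and iKO in different colours and open triangles for the 11 numbers. Outside the 11, the iKO points lie between 31.4 and 96.9 CPM and all flox points lie at or below 25.01 CPM.

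Abcc3, the export pump on the blood side of hepatocytes, was the second transporter called without the 11 numbers (2 of 34, background 7.03%). With all libraries it had 118.3, 231 and 744 CPM in flox and 223.2, 313 and 585 CPM in iKO, and did not pass (0.43 log2, SE 0.16, edgeR adjusted p = 0.105). Without the 11 it had 118.3, 224 and 321 CPM in flox and 224.2, 293 and 373 CPM in iKO, and rose by 0.63 log2 (SE 0.14, edgeR adjusted p = 0.00494). The ranges overlapped, with every iKO liver above the flox median. Slco1b2 was next, at 0.47 log2 (SE 0.15, edgeR adjusted p = 0.0529), followed by Slco2a1 at -0.43 log2 (SE 0.14, edgeR adjusted p = 0.0718).

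With all libraries, 7 of the 31 liver transporters had an unadjusted p under 0.05, as had 24.6% of all genes: Slc22a5, Abcc3, Slc22a15, Slc22a3, Slc22a18, Abcc4 and Slc22a4. Slc22a18 was at -0.59 log2 (SE 0.23, edgeR adjusted p = 0.128) and Slc22a15 at -0.47 log2 (SE 0.17, edgeR adjusted p = 0.109). The median difference of the 31 was -0.03 log2, against 0.00 over all genes tested. Single livers moved this picture. Without flox ZT6 number 1, 8 transporters were called (background 19.7%), adding Abcc1, Abcc3, Abcc4, Slc22a3, Slc22a4, Slc22a15 and Slc22a18 to Slc22a5. Without flox ZT22 number 1, 5 were called (Slc22a5, Slc22a4, Abcc3, Slc22a15 and Slc22a18, background 15.1%). Without iKO ZT6 number 3 it was 7 (background 12.1%), of which Slc22a5 and Abcc4 were higher and Abcc6, Slc22a18, Slc22a28, Slc22a30 and Slco2b1 lower in iKO, and without iKO ZT18 number 3 it was 4 (Slc22a5, Slc22a15, Slc22a18 and Abcc4, background 12.5%).

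Some transporters divided the 11 livers from the other 25 without overlap. Slc22a4 had 21.1, 48.0 and 66.6 CPM in the 11 livers and 1.05, 4.78 and 14.4 CPM in the other 25. Abcc1, a pump of glutathione conjugates, had 7.96, 11.2 and 22.4 CPM against 0.97, 2.76 and 5.42 CPM. Abcc6 went the other way, with 2.97, 9.36 and 33.4 CPM in the 11 and 61.9, 230 and 941 CPM in the 25. Slco2b1 lay within 7.55 to 132 CPM in the 11 and 166.5 to 264 CPM in the 25, and Slc22a28 within 0 to 2.32 and 2.65 to 29.4 CPM. In these 5 of 31 tested genes the sets did not overlap, as in 9.86% of all genes, and no test was run because the 11 were picked from their own values.

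Other liver carriers were low in most of the 11 with some overlap. Slco1a1 had 2.70, 7.22 and 121 CPM in the 11 and 75.4, 381 and 565 CPM in the 25. Slc22a30 had 0.711, 31.1 and 146 CPM against 108.9, 206 and 443 CPM. Abcc2 did not divide them, at 324.6, 473 and 500 CPM against 298.4, 446 and 642 CPM. Beside these, 6 male-biased liver genes had means of 2.43 to 8.14 log2 CPM in the 11 and 5.84 to 10.09 in the 25, and 6 female-biased genes -0.85 to 4.12 and -2.74 to 4.06. The part of the cell cycle, macrophage and sex-biased genes in these differences was not tested.

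The genotype difference of Abcc4 depended on the 11. It was 0.64 log2 (SE 0.25, edgeR adjusted p = 0.128) with all libraries and -0.006 without the 11. Its levels were 7.17, 10.46 and 17.7 CPM in the 11 livers and 0.456, 2.21 and 8.78 CPM in the 25.

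At single times no liver transporter was called with all libraries (edgeR; 8 of 31 had an unadjusted p under 0.05 at ZT14 and 8 at ZT18, where 19.9% and 19.8% of all genes had). Genes called in liver were 0.0362% at ZT18 (0.0121% higher and 0.0241% lower) and 0 at each other time. DESeq2 called 5 pairs of gene and time: Abcc4 at ZT14 (2.56 log2) and ZT18 (2.84), Slc22a5 at ZT18 (2.94), Slc22a3 at ZT18 (1.52) and Slc22a7 at ZT22 (2.54). DESeq2 called 2.92% of all genes at ZT14, 8.35% at ZT18 and 0.0784% at ZT22. At ZT14 and ZT18, 2 of 3 iKO livers are among the 11 and no flox liver is, and at ZT22 all 3 iKO livers are. A joint test that the genotype difference varies over the day called none of the 31 and no gene at all (edgeR; 5 had an unadjusted p under 0.05), while DESeq2 called Abcc4 (adjusted p = 0.0173, background 0.265%).

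The other transporters and regulators gave 3 of 35 called in liver, all higher in iKO (background 2.64%, with 1.09% higher and 1.56% lower). Cebpb, a transcription factor of the acute phase and of liver metabolism, had 144.4, 281 and 581 CPM in flox and 192.7, 555 and 1006 CPM in iKO (0.89 log2, SE 0.18, edgeR adjusted p = 0.0107). Abcb4, the pump that moves phospholipid into bile, had 140.3, 208 and 327 CPM in flox and 95.0, 388 and 638 CPM in iKO (0.75 log2, SE 0.21, edgeR adjusted p = 0.0461). Slc13a3, a dicarboxylate carrier, had 19.4, 35.0 and 93.1 CPM and 18, 56.8 and 180 CPM (0.71 log2, SE 0.20, edgeR adjusted p = 0.0478). All 3 pairs of ranges overlapped. Without the 11, Abcb4 rose by 1.40 log2 (adjusted p = 7.14e-08), while Cebpb was at 0.48 (0.0506) and Slc13a3 at 0.32 (0.446) in edgeR. Without the 2 numbers with high Xist, Cebpb passed (0.0194) and Abcb4 (0.0813) and Slc13a3 (0.139) did not.

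In kidney none of 40 tested transporters was called between genotypes over the 6 times (edgeR; 0.164% of all genes were called, 0.0737% higher and 0.0908% lower), 8 had an unadjusted p under 0.05 (9.43% of all genes had) and DESeq2 called 3 (background 1.15%). Those 3 were Slc22a27, Abcc3 and Slc22a29, with DESeq2 adjusted p of 0.0109, 0.0147 and 0.0355. In edgeR they were at 1.54 log2 (SE 0.40, adjusted p = 0.0982), 1.81 (SE 0.52, 0.163) and 1.52 (SE 0.46, 0.194). Abcc3 had 0.79, 2.93 and 55.9 CPM in flox and 1.35, 4.82 and 146 CPM in iKO, so the medians were close and the upper ends were not. Its 10 highest kidneys had 55.9 and 21.03 CPM in flox (ZT6 and ZT22, number 1) and 72.7, 40.6, 50.4, 29.1, 61.7, 78.3, 17.6 and 145.9 CPM in iKO (from ZT6 to ZT22). All 10 are among the 11 numbers, and the other, iKO ZT22 number 1, had 4.17 CPM. Without the 11 the genotypes were at medians of 2.68 and 2.82 CPM. In edgeR, Abcc3 was called without flox ZT6 number 1 (2.31 log2, adjusted p = 0.0275) and Slc22a27 without iKO ZT18 number 3 (1.63 log2, adjusted p = 0.0383).

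Kidney carriers moved with the same 11 numbers, in both directions, though none of the 40 was apart without overlap (0.119% of all genes were). Slco1a1 had 0, 0.16 and 160 CPM in the 11 kidneys and 3.99, 189 and 851 CPM in the 25. Slc22a7 had 2.18, 5.76 and 267 CPM against 21.3, 171 and 370 CPM, and Slc22a6 had 50.1, 101 and 488 CPM against 79.1, 740 and 1586 CPM. These carriers of anions were low in most of the 11. Slc22a30 had 0.419, 4.21 and 135 CPM against 21.2, 131 and 267 CPM. Abcc3 had 4.17, 50.4 and 146 CPM against 0.79, 2.77 and 14.8 CPM, and Slc22a29 had 3.95, 21.7 and 49.7 CPM against 1.02, 3.07 and 15.4 CPM. The iKO ZT22 number 1 kidney went with the 25 in several of these, and the flox ZT22 number 3 kidney, which is not among the 11, had the 79.1 CPM of Slc22a6. Proximal tubule markers were at 8.18 to 9.68 log2 CPM in the 11 and 8.27 to 10.59 in the 25, and their part in these levels was not tested.

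**Figure D3:**
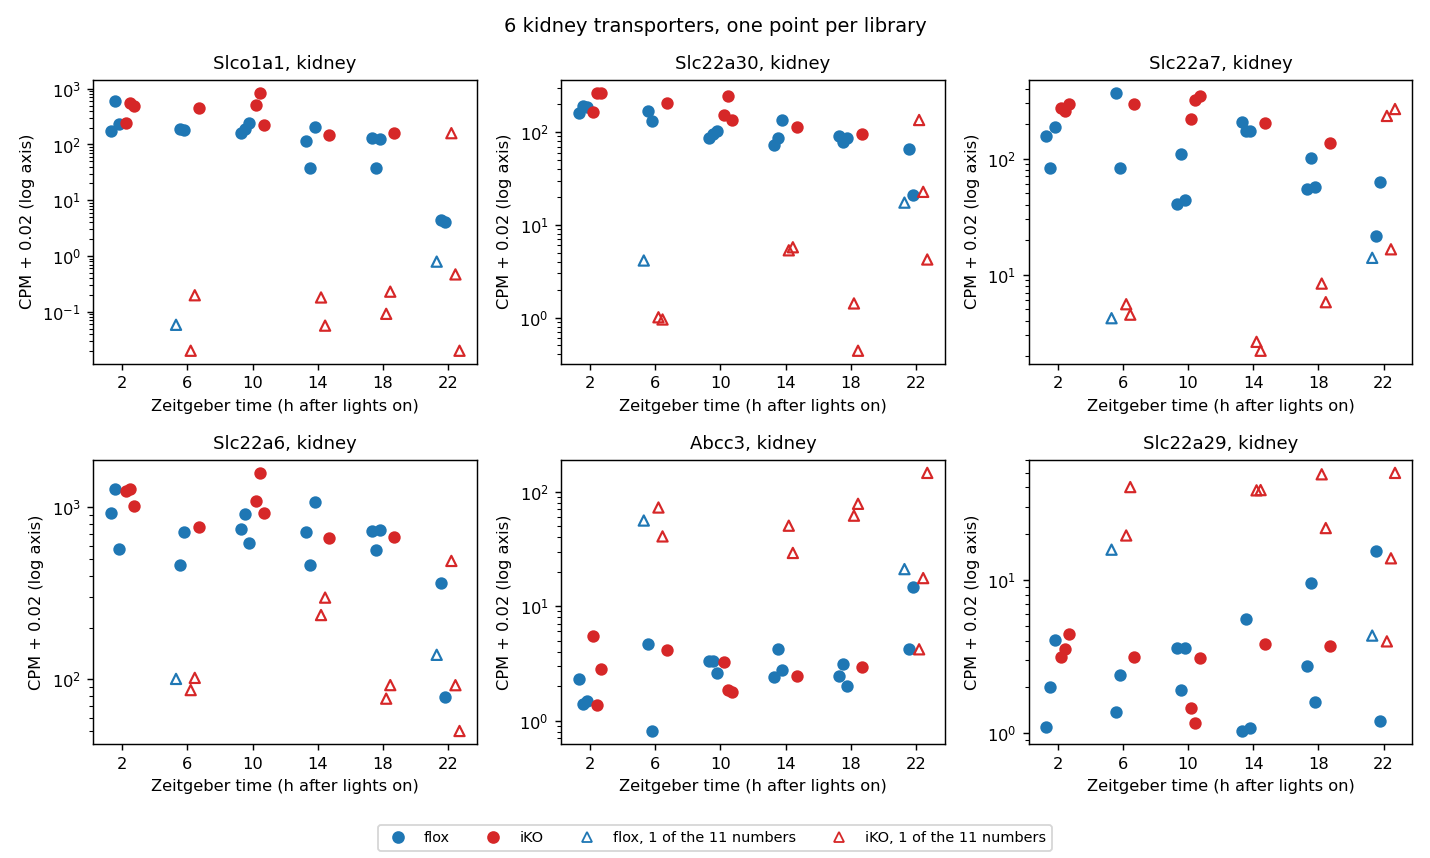
Levels of Slco1a1, Slc22a30, Slc22a7, Slc22a6, Abcc3 and Slc22a29 in kidney (CPM plus 0.02, log axis) against zeitgeber time, 1 point per library, with open triangles for the 11 numbers. Most triangles lie low in the first 4 panels and high in the last 2, in both genotypes.

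With the 11 left out, no kidney transporter was called over the 5 shared times (edgeR, 0.422% of all genes were, 6 of the 40 had an unadjusted p under 0.05). The smallest p was that of Slc22a7, at 21.3, 92.0 and 370 CPM in 16 flox and 136.7, 273 and 349 CPM in 9 iKO kidneys (0.93 log2, SE 0.27, edgeR adjusted p = 0.196). Slc22a5, the gene that rose in liver, was at 57.7, 183 and 281 CPM in flox and 206.5, 257 and 401 CPM in iKO (0.46 log2, SE 0.17, edgeR adjusted p = 0.311). Whether the liver and kidney differences of Slc22a5 differ from each other was not tested.

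At single times no kidney transporter was called (edgeR; 7 of 40 had an unadjusted p under 0.05 at ZT18), with 0.0113% of genes called at ZT22 (0.00567% higher and 0.00567% lower) and 0 at each other time, and DESeq2 called 3 pairs: Slc22a21 (1.42 log2) and Abcc3 (4.27 log2) at ZT18 and Abcc4 at ZT22 (-1.41 log2), where it called 0.698% and 0.38% of all genes. Without iKO ZT18 number 3, the 1 iKO kidney of that time outside the 11, edgeR called 5 at ZT18 (background 2.72%): Slc22a21, Abcc1, Abcc2, Slc22a8 and Slco3a1. The joint test over the day called none and no gene at all (edgeR; 4 at an unadjusted p under 0.05), while DESeq2 called Abcc4 (adjusted p = 0.0415, background 0.301%). None of 34 partners was called in kidney.

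In WAT none of 35 tested transporters was called between genotypes, nor was any gene (0% in edgeR), 2 transporters had an unadjusted p under 0.05 (Abcc8 at -1.32 log2 and Slco2b1 at 0.89 log2), and DESeq2 called none of the 35. Single times and the joint test also called none there in edgeR (background 0%; up to 6 of 35 had an unadjusted p under 0.05, at ZT10) or DESeq2. The common coefficient of variation was 0.785 in WAT, against 0.514 in liver and 0.302 in kidney.

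Part of that spread follows the epididymis markers. By their mean (log2 CPM), 5 WAT libraries lay below 0 (2 flox, 3 iKO), 18 from 0 to 9 (10 flox, 8 iKO) and 13 above 9 (6 flox, 7 iKO). These sets follow the mean only, since Crisp1 was highest in the middle set, as given above. Slco4c1 was 0 to 0.117 CPM in the first, 0 to 143 CPM in the middle and 22.1 to 140 CPM in the last. Slco4a1 had medians of 0.234, 4.74 and 15.1 CPM and Slco1a5 of 0.029, 6.23 and 13.5 CPM in that order. Slc22a3 ran the other way, with medians of 109, 18.8 and 5.38 CPM, as did Slco2b1 with 70.8, 18.7 and 12.1 CPM, Slc22a4 with 9.7, 4.4 and 0.986 CPM and Abcc9 with 50.6, 37.1 and 11 CPM. Slco2a1 was highest in the middle set, with medians of 10.1, 110 and 33.8 CPM. Adipocyte markers had medians of 11.19, 8.47 and 6.4 log2 CPM in the 3 sets and testis markers -3.25, 2.04 and 3.62. The part of other tissue in the WAT libraries in these levels was not tested beyond these values.

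**Figure D4:**
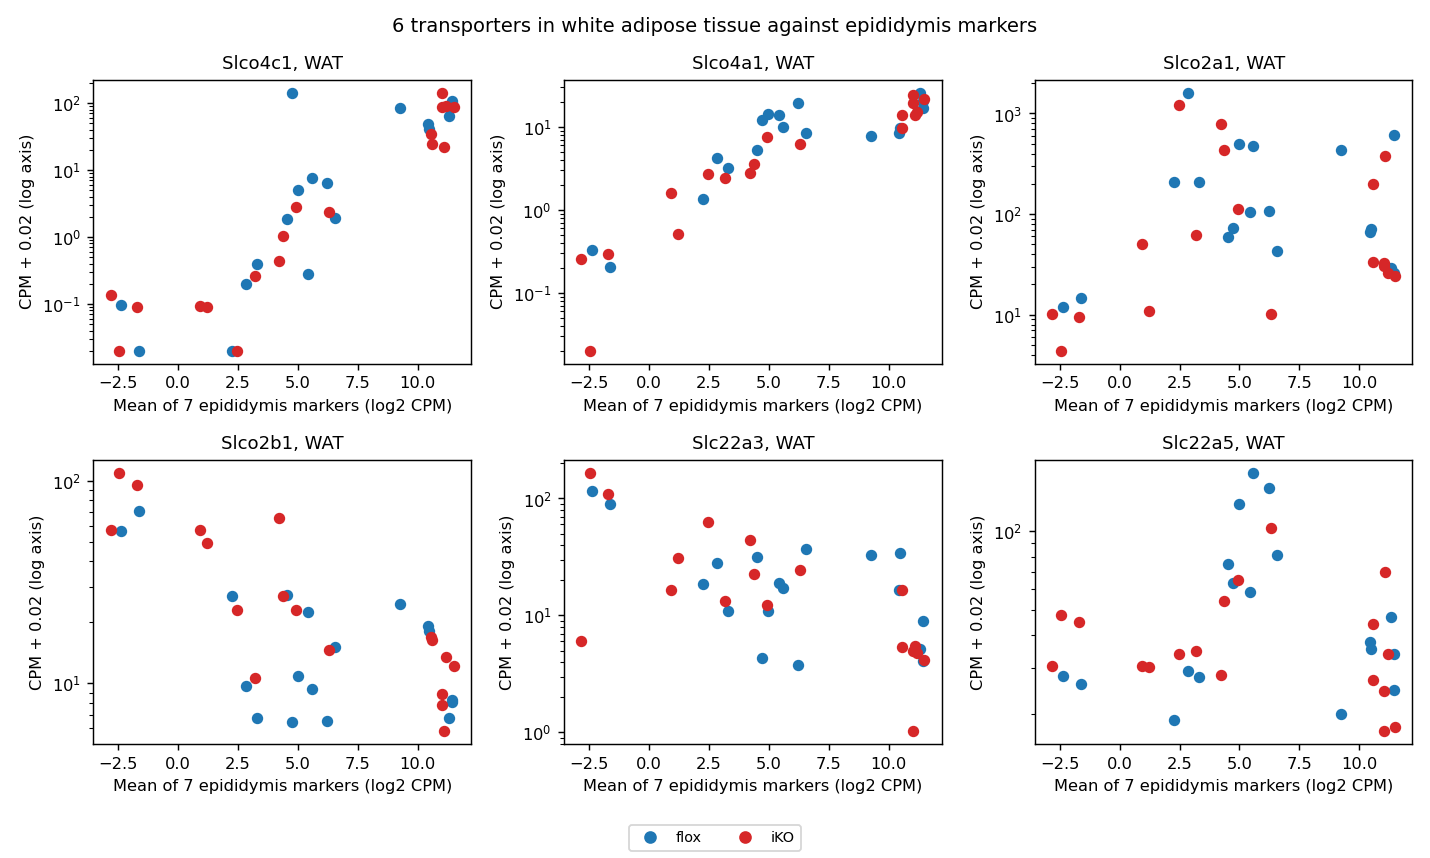
Levels of 6 transporters in WAT (CPM plus 0.02, log axis) against the mean of 7 epididymis markers (log2 CPM), 1 point per library, coloured by genotype. Slco4c1 is 0 to 0.117 CPM in the 5 libraries below 0 on the x axis and 22.1 CPM or more in the 13 above 9.

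Over the day, a 24 h cosine called no transporter in any tissue or genotype (edgeR). In kidney 5.07% of all genes were called in flox and 4.22% in iKO, in liver 0.772% and 0.0844%, and in WAT 0%. At an unadjusted p under 0.05 there were 6 and 2 of 40 in kidney, 3 and 5 of 31 in liver and 3 and 0 of 35 in WAT, in flox and iKO. Of all genes it was 22.3% and 22.5% in kidney, 14.9% and 12.2% in liver and 9.69% and 3.78% in WAT. Genes of the partner list, clock output genes among them, did pass: in flox kidney Dbp, Nr1d1, Tef and Ppara (4 of 34), in iKO kidney Dbp, Tef, Nr1d1, Slc17a2 and Slc2a9 (5), in flox liver 3 of 35, among them Nr1d1 and Dbp, and in iKO liver Nr1d1 and Dbp (2 of 35). A change of rhythm between genotypes was called for no transporter in any tissue (background 0%; edgeR, 1 liver and 1 WAT transporter had an unadjusted p under 0.05), and DESeq2 called none either.

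The transporter nearest to a call in kidney was Slc22a4, whose promoter with its E-box is printed above. Its flox kidneys had 33.3, 46.6 and 20.3 CPM at ZT2, 23.0, 33.8 and 47.5 at ZT6, and 46.7, 61.6 and 46.1 at ZT10. They had 35.2, 32.7 and 42.1 at ZT14, 33.5, 27.1 and 33.7 at ZT18, and 17.8, 17.4 and 16.1 at ZT22. The 3 ZT22 kidneys were the lowest of the 18 and the ZT10 kidneys were among the highest. The iKO kidneys had 37.8, 46.4 and 44.65 CPM at ZT2, 22.6, 17.7 and 48.7 at ZT6, and 63.75, 67.0 and 42.6 at ZT10. They had 24.8, 23.0 and 34.7 at ZT14, 18.6, 16.1 and 36.7 at ZT18, and 21.6, 19.7 and 20.9 at ZT22. ZT10 held the highest iKO kidneys, and 3 iKO kidneys of ZT6 and ZT18, all among the 11, lay below every ZT22 kidney. The fitted amplitude, the log2 distance from mean to peak, was 0.55 in flox (peak at 9.82 h, edgeR adjusted p = 0.081) and 0.57 in iKO (peak at 7.64 h, edgeR adjusted p = 0.0799). DESeq2 called both (adjusted p = 0.038 and 0.0359, backgrounds 9.53% and 8.92%), and without the 11 numbers edgeR called flox (adjusted p = 0.0162, background 8.65%).

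A test with time as 6 free levels, which needs no cosine shape, called more. In flox kidney it called 7 of 40 (background 12.4%): Slco4a1, Abcc4, Abcc5, Abcc6, Slc22a15, Slc22a21 and Slc22a4. In iKO kidney it called 17 (background 40%), where the 11 numbers fall on ZT6, ZT14, ZT18 and ZT22 and so lie along the time axis. Among those with the smallest p were Slc22a4, Slco4a1, Slc22a21, Slc22a12, Slc22a23, Slc22a15, Slc22a5, Slco3a1, Slco1a6, Abcc2 and Abcc3. In liver it called Slc22a26 and Abcc4 in flox (2 of 31, background 4.11%) and Abcc4, Abcc10, Slc22a26 and Abcc1 in iKO (4, background 11.6%). In WAT it called none of 35 (background 0.0514% and 0%; edgeR, 4 and 3 at an unadjusted p under 0.05). These counts are close to the share of all genes called in the same test and set the transporters apart in none of them. Without the 11 numbers the same test called 0 of 40 in iKO kidney (0 at an unadjusted p under 0.05, background 0.236%) and 0 of 34 in iKO liver (6 unadjusted, background 1.82%), with 1 iKO library left at ZT6, ZT14 and ZT18 and none at ZT22. In flox it then called 10 of 40 in kidney (background 6.83%) and 4 of 34 in liver (background 11.7%). Without the 2 numbers with high Xist it called 7 of 40 in iKO kidney (background 21.7%) and 0 of 32 in iKO liver (12 unadjusted, background 1.54%).

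Abcc4, the export pump for cyclic nucleotides and bile acids, was high at ZT22 in flox mice. In flox kidney it had 109.0, 72.2 and 148.4 CPM at ZT22 and 28.04 to 76.7 CPM at the other times, and the edgeR adjusted p of time was 0.0152. In flox liver it had 13.4, 4.88 and 8.78 CPM at ZT22, 14.3, 4.57 and 4.25 at ZT6, and 0.456, 0.888 and 1.87 at ZT18 (edgeR adjusted p = 0.0323). The ZT18 livers were low and those of ZT22 high, with the highest ZT6 and ZT22 values in the 2 flox livers of the 11. In iKO kidney ZT22 was not high, at 27.6, 57.4 and 39.5 CPM, but all 3 of these kidneys are among the 11 and number 3 had high Xist. The joint test that the genotype difference varies over the day did not call Abcc4 in kidney (edgeR adjusted p = 0.606), though DESeq2 did, as given above. Without the 11, Abcc4 was called in flox kidney (adjusted p = 0.00717, background 6.83%) and flox liver (adjusted p = 0.015, background 11.7%) by edgeR.

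Slc22a26, an anion carrier of the chromosome 19 cluster whose window held a D-box, had 6.23, 144.9 and 31.4 CPM in flox liver at ZT22. At the other 5 times its flox livers ran from 0.738 to 10.52 CPM, so 1 library carries much of the difference. Time as 6 levels gave an edgeR adjusted p of 0.0316 and the cosine 0.152, with an amplitude of 1.95 and a peak at 21.5 h. The cosine was called by DESeq2 (adjusted p = 0.035) and by edgeR without the 11 (adjusted p = 0.0338), where Slco2a1 was called too (adjusted p = 0.0373, background 8.24%). Slco4a1 in flox kidney had 116.2, 5.45 and 324.1 CPM at ZT22 and 6.10 to 36.5 CPM at the other times, and its ZT22 libraries were both the highest and the lowest.

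**Figure D5:**
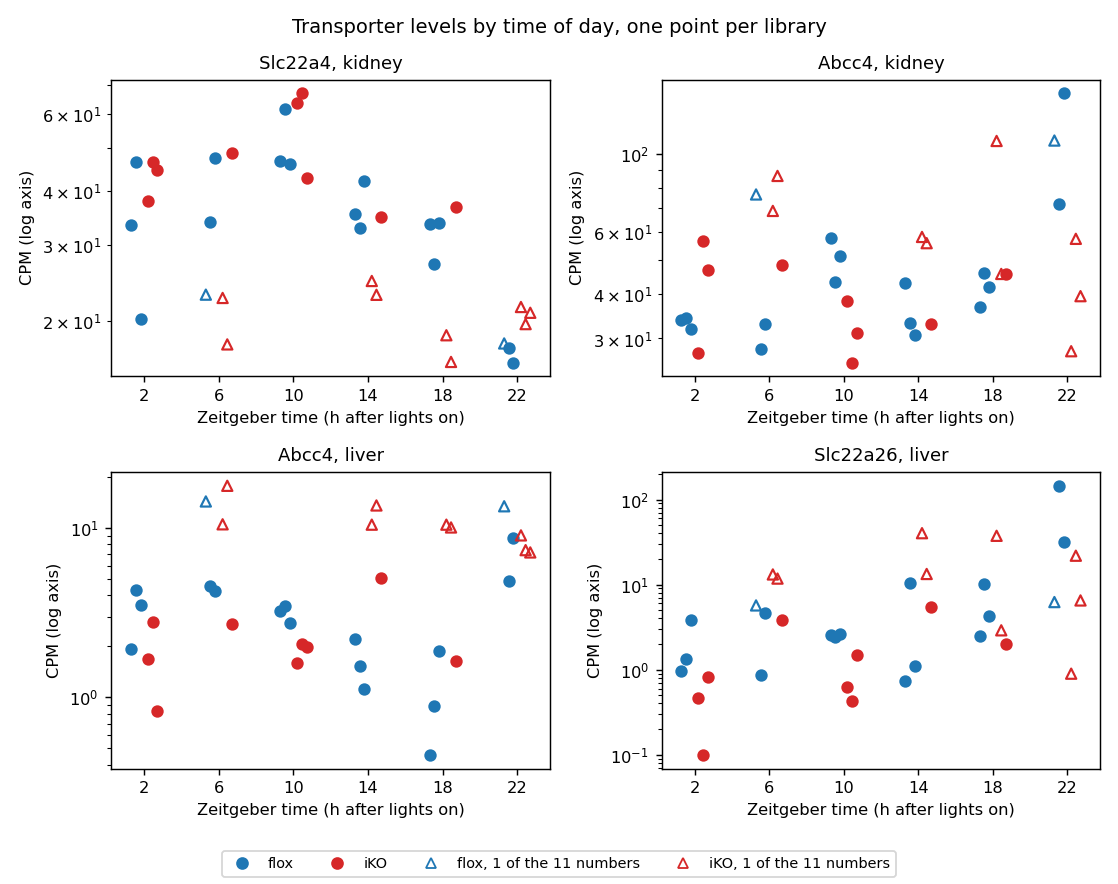
Levels of Slc22a4 and Abcc4 in kidney and of Abcc4 and Slc22a26 in liver (CPM, log axis) against zeitgeber time, 1 point per library, with open triangles for the 11 numbers. Slc22a4 in kidney is lowest at ZT22 in flox (16.1 to 17.8 CPM), and Abcc4 in flox kidney is highest there (72.2 to 148.4 CPM).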

How the data were processed

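RNA of 108 samples was measured, 36 per tissue and 3 per tissue, genotype and time. RNA was extracted with Trizol and libraries were sequenced as 150 bp reads on an Illumina instrument, per the labels' protocols. The authors deposited 1 table of raw read counts per gene, with gene length; HISAT2 2.0.4, featureCounts 1.5.0-p3, DESeq2 1.16.1 and GRCm38 are named in the submitters' processing notes, and the strand setting is not given in the sources used here. The table's gene coordinates do not match GRCm38, so coordinates were taken from the GRCm38 annotation by gene ID. Rows with no symbol numbered 1492.

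The members and lists were chosen with earlier results of these data known. Each tissue was fitted alone with edgeR 4.0.16 (R 4.3.3, limma 3.58.1; TMM factors, filterByExpr, quasi-likelihood test) over genotype and time groups, with genotype differences averaged over times, at single times and as an interaction, and with a 24 h cosine or time as a factor per genotype. Tissues were compared in flox libraries. P-values were adjusted by Benjamini-Hochberg over all genes tested (16582 in liver, 17630 in kidney, 21402 in WAT, 21237 between tissues) and called under 0.05. Differences are iKO minus flox unless stated. CPM use TMM factors over all libraries, and RPKM also divide by the deposited gene length. The scripts were tested on simulated data. DESeq2 1.42.0 was the other tool. Each library was left out in turn within a tissue, and each replicate number as a whole between tissues. Genes were named where called, at most 12 by smallest p, with the 8 highest per tissue, the 3 largest tissue differences and a fixed list of well-known members; others are named for single values seen. Of 18 flox and iKO pairs with 1 replicate number, 6 in liver, 5 in kidney and 10 in WAT correlated above 0.1. The median was 0.042, 0.027 and 0.112 and the highest 0.694, 0.43 and 0.853, so pairing by number was not steady. The main fits did not use it. Between tissues of flox, 6 (liver with kidney), 3 (liver with WAT) and 4 (kidney with WAT) of 18 correlated above 0.1. Total counts (lowest, median, highest, in units of 1000000) were 14.4, 18.4 and 23.4 in liver, 13.9, 19.65 and 22.1 in kidney and 14.1, 20.25 and 24.4 in WAT. No pair of libraries of a group was alike within counting error. Single results of a few genes, and of 1 motif, are not reported here, while counts over the set include every member.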

Additional observations from a re-analysis of the deposited data

How the results depend on the processing

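Counts below are of transporters called, by edgeR unless DESeq2 is named. The average genotype effect in liver (1) became 0 with DESeq2 size factors, with no filter and without the 2 numbers with high Xist, and 2 without the 11 numbers. That in kidney (0) became 3 with DESeq2. Single times (0) became 5 in liver and 3 in kidney with DESeq2, and 3 in liver without the 11 numbers, of which ZT14 rests on 1 iKO liver. The interaction (0) became 1 in liver and 1 in kidney with DESeq2. The cosine (0) in flox liver became 1 with DESeq2 and 2 without the 11 numbers, in flox kidney 1 with DESeq2 and 1 without the 11 numbers, and in iKO kidney 1 with DESeq2. With time as a factor it became 2 in flox liver, 4 in iKO liver, 7 in flox kidney and 17 in iKO kidney, and without the 11 numbers these were 4, 0, 10 and 0. The Abcc4 average in liver turned from 0.64 to -0.006 log2 without the 11 numbers. The cause of these changes was not tested.

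With 1 library of a tissue left out, counts ranged from 0 to 8 for the liver average and 0 to 1 for the kidney average. For single times they ranged from 0 to 6 in liver and 0 to 5 in kidney. They were 0 to 1 for the cosine in flox and in iKO kidney, where Slc22a4 or Slc22a17 was called. For the other genotype, interaction and cosine results they stayed at 0. With time as a factor they ranged from 0 to 4 in flox liver and 0 to 13 in iKO liver. In flox kidney they were then 1 to 8, in iKO kidney 9 to 26, and in WAT 0. Between tissues, all flox libraries of 1 replicate number were left out together, in 3 fits. Counts then ranged from 37 to 38 for kidney minus WAT, 35 to 38 for liver minus kidney and 33 to 37 for liver minus WAT.

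Over all genes, the liver average called 438, against 1597 with DESeq2, 218 with no filter, 1199 without the 11 numbers and 159 without the 2 numbers with high Xist. The kidney average called 29, against 203 with DESeq2, 77 without the 11 numbers and 17 without the 2 numbers. WAT called 0, against 25 with DESeq2. With the replicate number as a block, the liver average called 1 transporter and 796 genes and the kidney average 0 transporters, and with time as a factor 7 were called in iKO liver and 1 in flox liver. A block of time and number between tissues called 39 for liver minus kidney, 38 for liver minus WAT and 41 for kidney minus WAT. Leaving out the 11 numbers also removes ZT22 from the genotype comparison, and genes near 0 counts are limited by depth.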

Other observations

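The 2 pseudogene rows whose symbols start like the transporters were left out of the set. Slco6b1 had no count in any liver or kidney, and Slc22a13b had 0, 0.311 and 1.73 CPM in flox liver (lowest, median, highest).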
